A study of Mus musculus with 2 samples.

Results

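Integrins are adhesion receptors made of an alpha and a beta chain, and the genes described here are the mouse integrin chains with a few of their ligands and activators. The list held 32 genes, 18 alpha chains, 8 beta chains, the ligands Icam2 and Vcam1, and the cytoplasmic partners Tln1, Tln2, Fermt3 and Ilk, of 18426 genes with a named probe on the array. They were chosen by name, with earlier results of these data known, and matched through the transcript that each probe was designed for. Of the 32 genes, 29 had a named probe, 50 probes in all, and Itga10, Itgad and Itgb8 had none. A total of 23 genes were well above background on both arrays, and the other 6 with probes (Itga2, Itga8, Itga11, Itgam, Itgb6 and Vcam1) were well above background on neither.

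RNA came from CD4 T cells isolated from the spleen, of the genotype Menin WT or Menin KO, with 1 array for each and all mice female and of the strain C57BL/6J. Menin, the protein of the Men1 gene, is a chromatin-associated partner of MLL histone methyltransferases, and the series title concerns its link to Bach2, T cell senescence and cytokines. Cells of both genotypes were naive CD4 T cells, stimulated for 2 days through the T cell receptor beta chain (3 µg/ml antibody) and CD28 (1 µg/ml antibody) with IL-2 at 2.5 ng/ml, then replated in the same dose of IL-2 for a further 3 days. How Men1 was deleted, any Cre driver, the age of the mice and how many mice were used are not given in the sources used here. Men1 itself read 1081 in WT and 459 in KO, 2.38-fold lower, and Bach2, a repressor of effector genes, read 4643 and 604, 7.76-fold lower. Where the Men1 probe lies relative to the deletion was not determined.

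An integrin at rest is bent and binds weakly. Signals from the T cell receptor or from chemokine receptors bring talin and kindlin to the tail of the beta chain, which opens the receptor for its ligand, and the bound receptor then signals back through focal adhesion proteins. In T cells the beta-2 integrins, above all LFA-1, hold the contact with antigen-presenting cells, the alpha-4 integrins serve homing, and CD103, the alpha-E chain with beta-7, holds cells to epithelium through E-cadherin.

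Integrin genes past 2-fold were mostly higher in KO. Of the 23 measured genes, 7 were at least 2-fold higher in KO (30.4%) and 1 was at least 2-fold lower (4.35%), while 15 lay between. Over the 13783 named genes measured on at least 1 array, 10.6% were at least 2-fold higher and 5.04% at least 2-fold lower. As the list was chosen with earlier results known, these shares describe it and test nothing. The median log2 difference, KO minus WT, was 0.47 over the 23 integrin genes and -0.01 over all genes. Of the 23 genes 19 were above 0, while over all 13783 genes 6687 were above 0 and 6820 below. The higher genes were Itgax, Itgae, Tln2, Itga3, Itgb4, Itgb5 and Itga9, and the lower one was Itga6. With 1 array per genotype no difference was tested and there are no p-values, and a larger share of some cell type and more RNA per cell cannot be told apart. Signals are the processed spot brightness in arbitrary units, and each fold was taken after both arrays had been scaled to their 75th percentile of signal (644 in WT and 650.3 in KO). Between spots of 1 probe the difference had an SD of 0.314 on the log2 scale for signals under 100 and 0.0541 for brighter ones, which is scatter within these arrays and leaves out mice and cultures.

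**Figure D1:**
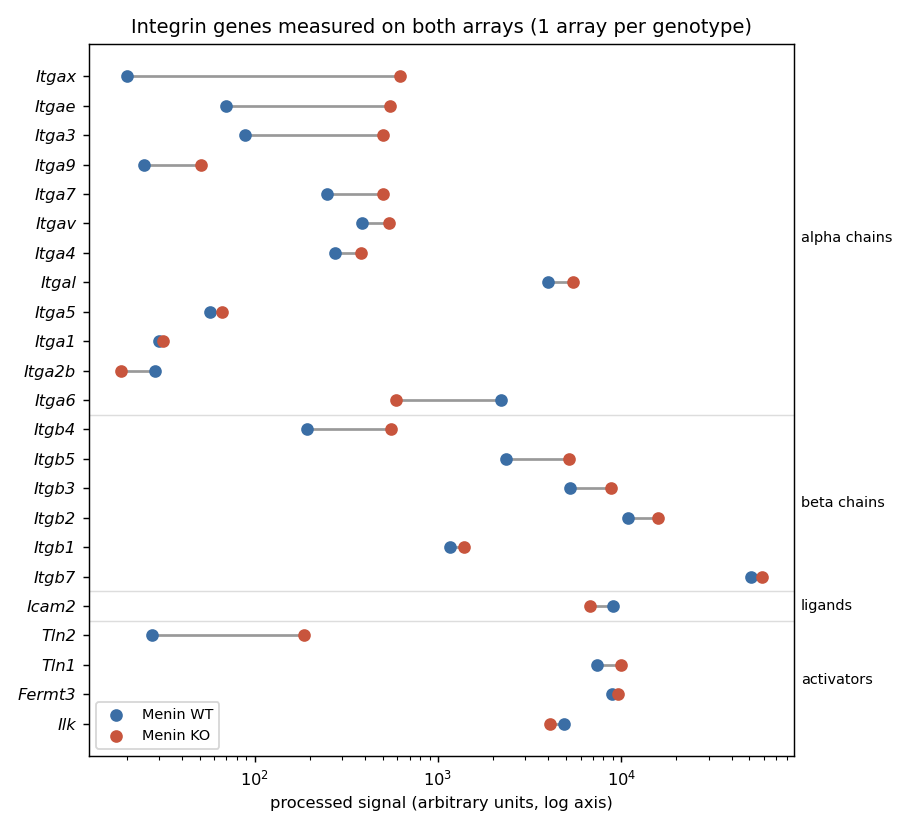
Processed signal (log axis) of the 23 integrin genes measured on both arrays, blue for Menin WT and red for Menin KO, 1 array each, with a line joining the 2 values of a gene. Itgax had the longest line, from 20.0 to 623, and Itga6 the longest line in the other direction, from 2218 to 591.

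In the beta-2 family, whose chains are found on leukocytes, Itgax differed by far more than its relatives. Itgax, the CD11c chain known from dendritic cells and also found on activated T cells, read 20.0 in WT and 623 in KO, 30.8-fold higher (log2 difference 4.94). This difference had rank 11 from the highest among the 12472 genes measured on both arrays, and the WT value lay close to the lowest signal that counted as well above background there (14.0). Itgal, the CD11a chain of LFA-1, read 3979.6 in WT and 5448 in KO, 1.36-fold higher. Itgb2, CD18, the beta chain that all members of this family share, read 10951 and 15809, 1.43-fold higher. These chains of LFA-1 were thus within 1.5-fold of their WT signal, and Itgax was not. Both probes of Itgam, the CD11b chain of the complement receptor on myeloid and natural killer cells, were below detection on both arrays, at 3.11 and 3.36 in WT and 2.37 and 4.48 in KO.

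Itgam and Itgax are neighbours on chromosome 7, yet Itgax alone of this pair was detected. Their promoters are shown for that contrast, with that of Itgb5 as another gene higher in KO. The sequences are from RefSeq on GRCm38.p6, 5′ to 3′ in the direction of transcription, and end at the base before the first annotated base of the gene. Itgax lies at chr7:128129300-128129525 (plus strand), Itgam at chr7:128062390-128062639 (plus strand) and Itgb5 at chr16:33829415-33829664 (plus strand). Capitals mark the motif TGANTCA, the core that AP-1 factors and Bach proteins recognise, searched on both strands.
Itgax: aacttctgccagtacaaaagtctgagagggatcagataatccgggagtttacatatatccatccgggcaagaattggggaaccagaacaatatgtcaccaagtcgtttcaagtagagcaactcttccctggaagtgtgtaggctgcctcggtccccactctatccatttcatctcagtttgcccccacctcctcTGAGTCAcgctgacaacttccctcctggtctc
Itgam: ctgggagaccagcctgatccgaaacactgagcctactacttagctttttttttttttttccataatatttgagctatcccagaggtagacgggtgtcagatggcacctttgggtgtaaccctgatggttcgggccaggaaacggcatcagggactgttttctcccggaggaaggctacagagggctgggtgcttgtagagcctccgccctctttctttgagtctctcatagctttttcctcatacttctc
Itgb5: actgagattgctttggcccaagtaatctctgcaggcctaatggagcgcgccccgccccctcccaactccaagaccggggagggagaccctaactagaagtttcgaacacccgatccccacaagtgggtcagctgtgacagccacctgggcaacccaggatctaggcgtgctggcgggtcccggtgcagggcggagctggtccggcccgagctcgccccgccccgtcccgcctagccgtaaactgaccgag
The Itgax sequence held TGAGTCA between 32 and 26 bases before the gene, and the other 2 sequences held no TGANTCA. In the 250 bases before each start in the table, searched whole for every promoter although the Itgax stretch is printed only up to the gene, TGANTCA occurred in 6.75% of 32851 promoters. Of the integrin genes 21 had a promoter there, 24 promoters in all, and Itgax was the 1 gene among them with the motif. The motif GGAAGT, a core of Ets sites, was present in 19.7% of all promoters and in those of 7 integrin genes (Itga1, Itga2b, Itga11, Itgav, Itgax, Itgb6 and Tln1). TGTGGT, a core of Runx sites, was present in 14.0% of all and in those of 4 integrin genes (Itga3, Itga4, Fermt3 and Ilk). Both strands were searched for each, matches of different motifs may overlap, and a match is a description of the letters only. Itgae, Itga6, Itgb4 and Tln2 had no entry in the promoter table.

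Markers of other cells that carry CD11c or CD103 were read beside these genes. All 6 genes listed for CD4 T cells were measured on both arrays, with a summed signal of 117288 in WT and 100315 in KO. Apart from Cd4 they are T cell genes that CD8 T cells also express, so the sum does not separate these cells. Most of the sum was Cd3d (62714 in WT and 55593 in KO). Cd4 read 443 and 279 and Cd3e 1801 and 1584, while Cd3g alone of the 6 was higher in KO (1.29-fold). Of 4 dendritic cell markers 3 were measured, with a sum of 150.1 in WT and 166 in KO, and Siglech was below detection. This sum takes the brightest probe of each gene, and probes disagreed. The log2 difference or bound was 0.27 and -2.95 on the probes of Zbtb46, and -0.01 and -1.40 on those of Xcr1. Of 6 macrophage and monocyte markers 4 were measured, with sums of 94.8 and 351. Cd14 was 7.25-fold and Adgre1 at least 5.08-fold higher in KO, Csf1r read 27.3 and 21.0, Lyz2 was detected in WT alone, and Mertk was below detection. All 5 natural killer markers were measured on at least 1 array, with sums of 2259 and 8997. Fcer1g was 7.54-fold, Klrb1c 5.39-fold, Tyrobp 4.82-fold and Klrd1 1.62-fold higher in KO. Ncr1 was detected in KO alone (21.7), at least 1.54-fold higher. The probes of Klrb1c gave log2 differences or bounds of 2.43 and 1.73. Fcer1g and Tyrobp are also expressed by myeloid and mast cells. The CD8 T cell marker Cd8a read 312 and 3213, 10.2-fold higher in KO. The part of such cells, or of such a programme within the CD4 T cells, in the Itgax and Itgae values was not tested.

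Among the beta-7 integrins the alpha-E chain differed and the beta chain hardly did. Itgae, CD103, read 69.6 in WT and 548 in KO, 7.81-fold higher (log2 difference 2.96). Its partner Itgb7 was bright on both arrays, at 51283 and 58697, 1.13-fold higher. Itga4, which pairs with Itgb7 for homing to the gut and with Itgb1 for binding VCAM-1, read 273 and 381 on its brightest probe, 1.38-fold higher. Its other probes gave 27.1 in WT and 42.1 in KO, 1.54-fold higher, and at least 1.51-fold higher on a probe that was detected in KO alone. CD103 is also carried by regulatory T cells. Of 5 markers of those cells 4 were measured. Foxp3, dim and detected in WT alone (29.3), was at least 2.85-fold lower in KO. Ikzf2 was 3.82-fold lower, Tnfrsf18 1.20-fold higher and Nrp1 1.02-fold lower on the brightest probe of each. Log2 differences or bounds ran from -1.93 to -0.74 over the 4 probes of Ikzf2, and from -0.02 to 0.33 over the 2 of Nrp1.

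Itgb1, the beta-1 chain shared by most alpha chains, was printed 10 times on each array, and these spots show the scatter of the measurement. Its spots ranged from 1139 to 1198 in WT (mean 1169 ± 22.9, SD over 10 spots of 1 array) and from 1343 to 1418 in KO (1391 ± 25.0). These signals are unscaled, and after scaling the probe was 1.18-fold higher in KO. The spots repeat 1 array per genotype and are not replicates of a genotype. A second probe of Itgb1 read 309 and 448, 1.44-fold higher. The size of a small difference such as this one thus depended on the probe.

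The alpha chains that pair with beta-1 moved in both directions. Itga3, CD49c, a laminin receptor chain, read 87.9 in WT and 502 in KO on its brightest probe, 5.65-fold higher, and 42.0 and 294 on another, 6.94-fold higher. The remaining probe read 65.6 and 81.8, 1.24-fold higher, so the probes of this gene disagreed in size, though not in sign. Itga6, CD49f, the laminin receptor chain that pairs with beta-1 or beta-4, read 2218 in WT and 591 in KO, 3.79-fold lower (log2 difference -1.92). It was the only integrin gene of the 23 at least 2-fold lower, at rank 125 from the lowest among the 12472 genes measured on both arrays. Itga7, another laminin receptor chain, known from muscle, read 249 and 498, 1.98-fold higher and just short of the 2-fold limit. Itga9 lay just past it at 24.9 and 50.7, 2.02-fold higher. Both signals of Itga9 were dim, and its other probe (8.98 in WT and 11.7 in KO) gave no usable bound.

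Itga5 and Itga1, which pair with beta-1, were dim on both arrays. Itga5, the alpha chain of the classical fibronectin receptor, read 57.3 and 66.3, 1.15-fold higher. Itga1, CD49a, a collagen receptor chain found on tissue-resident T cells, was read by 3 probes that disagreed. Its brightest probe on average read 30.0 in WT and 31.6 in KO, 1.04-fold higher. The other probes were detected in KO alone, at 41.8 and 48.4 against 2.86 and 3.16 in WT, and gave bounds of at least 2.96-fold and 3.42-fold higher. The gene was therefore counted between the limits by the brightest probe, and other rules for choosing a probe put it past them. Itga2, Itga8 and Itga11 were below detection. Over the 13 probes of the 6 genes below detection, signals ranged from 2.92 to 11.5 in WT and from 2.09 to 10.2 in KO.

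**Figure D2:**
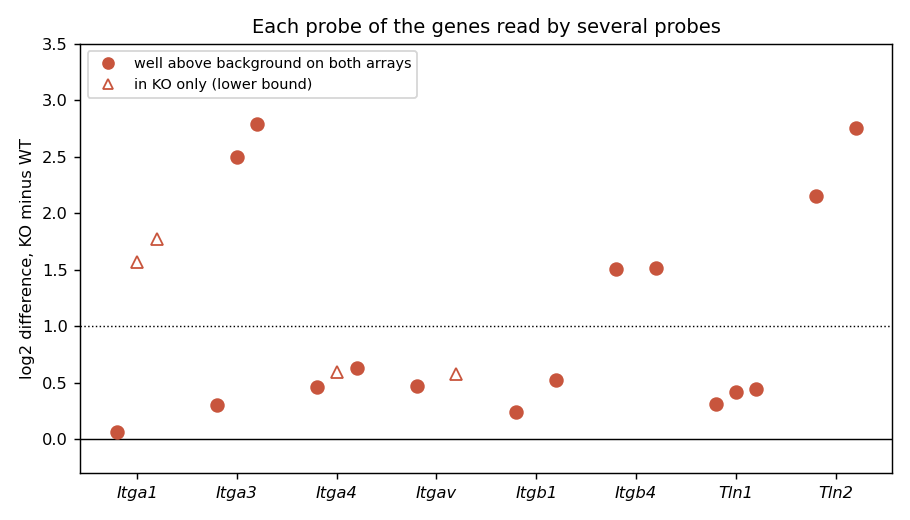
Log2 difference (KO minus WT) of each probe for the 8 integrin genes with a difference or bound from several probes, filled circles for probes well above background on both arrays and open triangles for lower bounds from probes detected in KO alone. Probes of Itgb4 and Tln1 lay close together, while those of Itga1 spread from 0.06 to 1.78 and those of Itga3 from 0.31 to 2.79.

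Of alpha-V and its partners beta-3 and beta-5, receptors of vitronectin and other ligands with an RGD motif, Itgb5 alone was at least 2-fold higher in KO. Itgav, CD51, read 386 in WT and 538 in KO, 1.38-fold higher, and at least 1.49-fold higher on a dim probe. Its partner Itgb3, CD61, read 5233 and 8816, 1.67-fold higher. Itgb5, the beta chain of a vitronectin receptor, read 2362 and 5194, 2.18-fold higher, and was thus bright on both arrays. Itgb6, an epithelial partner of alpha-V, was below detection. Itga2b, CD41, which joins beta-3 in the fibrinogen receptor of platelets, read 28.5 and 18.6, 1.55-fold lower. Platelet and megakaryocyte markers gave no bright signal on either array: Pf4, Ppbp and Gp1ba were below detection and Gp9 was detected in KO alone (11.9).

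Itgb4, the beta chain of the hemidesmosome integrin of epithelia, was higher in KO while its only partner was lower. It read 193 in WT and 554 in KO on the brighter probe, 2.84-fold higher, and 157 and 453 on the other, 2.86-fold higher. The probes of Itgb4 agreed within 0.01 on the log2 scale. Itga6, the only alpha chain known to pair with it, was 3.79-fold lower, and the log2 difference of the alpha chain minus that of the beta chain was -3.43.

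Set side by side by pairing, alpha and beta chains did not move together past the 2-fold limit in any pair measured. Of 24 known alpha-beta pairs among these genes, 16 had both chains measured on both arrays. In none were both chains at least 2-fold higher. In 4 pairs the alpha chain alone was at least 2-fold higher (Itgax, Itgae, Itga3 and Itga9), in 1 the beta chain alone (Itgb5 with Itgav), and in 1 the alpha chain alone was at least 2-fold lower (Itga6 with Itgb1). In 1 the chains lay past the limit on opposite sides (Itga6 with Itgb4), and in 9 neither chain passed it. Pairs share chains, above all Itgb1, so these counts are not independent.

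**Figure D3:**
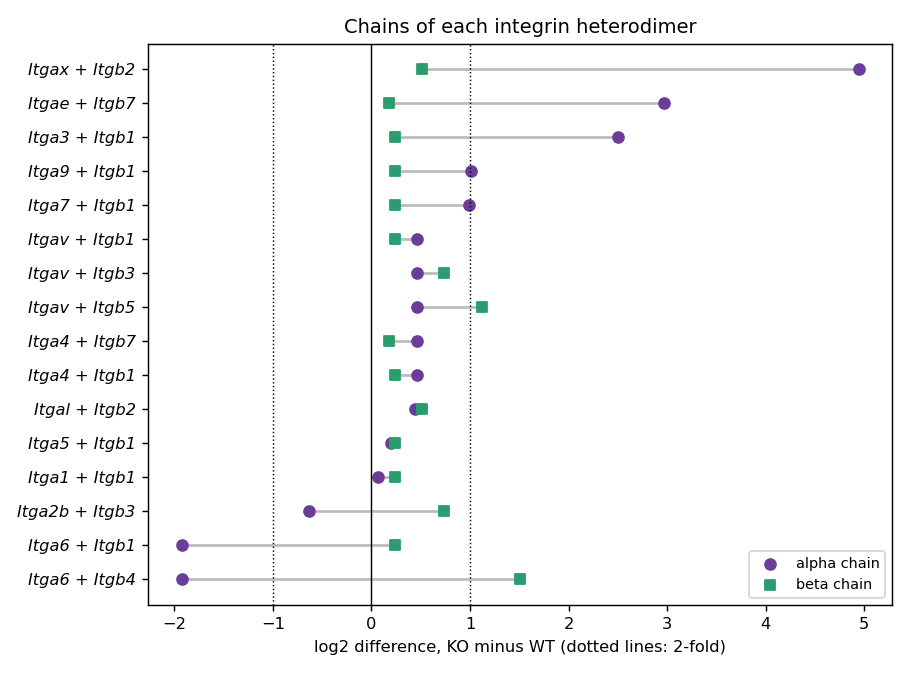
Log2 difference (KO minus WT) of the alpha chain (purple circles) and the beta chain (green squares) of each of the 16 pairs with both chains measured, with dotted lines at 2-fold. Itgax stood 4.43 above Itgb2 and Itgae 2.78 above Itgb7, whereas Itgal and Itgb2, the chains of LFA-1, lay within 0.08 of each other.

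Of the ligands on the list, Icam2, a ligand of LFA-1 on lymphocytes and endothelium, read 9042 in WT and 6768 in KO, 1.35-fold lower. Vcam1, the ligand of alpha-4 beta-1 on activated endothelium, was below detection on both arrays with both of its probes. Of 5 endothelial markers 2 were measured, with summed signals of 229 in WT and 328 in KO, while Cdh5, Tek and Emcn were below detection. Most of both sums was Pecam1, at 202 and 320, 1.57-fold higher. Kdr was dim and detected in WT alone (26.8), and at least 2.60-fold lower in KO.

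Among the cytoplasmic partners, talin-2 differed and the main leukocyte proteins did not reach 2-fold. Tln1, talin-1, which links beta tails to actin and activates integrins in T cells, read 7399 in WT and 9969 in KO, 1.34-fold higher, and its other probes were 1.36-fold and 1.24-fold higher. Fermt3, kindlin-3, the kindlin of blood cells, read 8952 and 9585, 1.06-fold higher. Ilk, the pseudokinase that binds kindlin at beta tails, read 4863 and 4074, 1.20-fold lower. Tln2, the second talin, read 27.4 and 186, 6.74-fold higher, and 24.6 and 111 on another probe, 4.45-fold higher. The remaining probe was below detection on both arrays. The Tln2 values in WT were dim.

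The other genes of the integrin pathway were read from a list of 81, also chosen with earlier results known. Of that list 70 were measured on at least 1 array. Of these 14 were at least 2-fold higher in KO (20.0%) and 4 at least 2-fold lower (5.71%), with a median log2 difference of 0.07, against 10.6% and 5.04% of all genes, so the lower share was near that over all genes. Most of the higher genes were ligands. Of 16 ligands measured 10 were higher, 2 lower and 4 between. Fn1, fibronectin, was counted between by a dim probe (18.4 in WT and 16.8 in KO), and its other probe gave a log2 difference or bound of 1.69. Col18a1, the collagen XVIII chain, read 119 in WT and 5460 in KO (45.5-fold higher). Spp1, osteopontin, a ligand of alpha-V and alpha-4 integrins, read 631 and 5591 (8.78-fold higher). The junctional adhesion molecule F11r read 233 and 1223, 5.19-fold higher. Jam2 was 5.41-fold higher on dim signals (16.1 and 87.9), and Jam3, detected in KO alone (28.5), at least 2.02-fold higher. Cdh1, E-cadherin and the ligand of CD103, read 24.1 and 74.3, 3.06-fold higher on dim signals. Icam4 (64.8 in WT and 184 in KO) was 2.82-fold, the laminin chain Lama5 2.05-fold and Icam5 2.02-fold higher. The basement membrane protein Nid1, detected in KO alone (111), was at least 7.88-fold higher. Tnc, tenascin C, detected in WT alone (82.9), was at least 8.06-fold lower. Vwf, von Willebrand factor, was 2.55-fold lower on dim signals (43.8 in WT and 17.4 in KO). Icam1, the main ligand of LFA-1, read 361 and 553 with a log2 difference of 0.60.

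The inside-out activation genes carry the T cell receptor signal to talin or, such as Sharpin, Itgb1bp1, Sipa1 and Sipa1l1, restrain activation. Among 17 measured none was at least 2-fold higher and 2 were at least 2-fold lower (11.8%), against 10.6% and 5.04% of all genes. Of the 17 genes 7 were above 0 and 10 below, against 6687 above and 6820 below over all 13783 genes. Fyb, the adaptor ADAP that brings the Rap1 machinery to integrins, read 21177 in WT and 8310 in KO, 2.57-fold lower. Rasgrp1, a guanine nucleotide exchange factor for Ras, read 10533 and 4966, 2.14-fold lower, although its other probe gave a log2 difference of -0.48. Fyb's partner Skap1 read 30682 and 17301, with a log2 difference of -0.84. Sipa1l1 read 9087 and 17053, with a log2 difference of 0.90. The small GTPase genes Rap1a and Rap1b had log2 differences of 0.11 and 0.19, and Apbb1ip, encoding the Rap1 effector RIAM, -0.39. Of 29 focal adhesion and outside-in genes 4 were higher (13.8%, near the 10.6% of all genes), none lower and 25 between. The higher ones included Tns3, a tensin (at least 5.19-fold), Bcar1, the docking protein p130Cas (4.02-fold), and Zyx, zyxin (11530 in WT and 28313 in KO, 2.43-fold). The kinases Ptk2 and Ptk2b had log2 differences of -0.44 and 0.09. All 8 lateral partners, such as Cd47 and Cd9, lay between the limits.

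**Figure D4:**
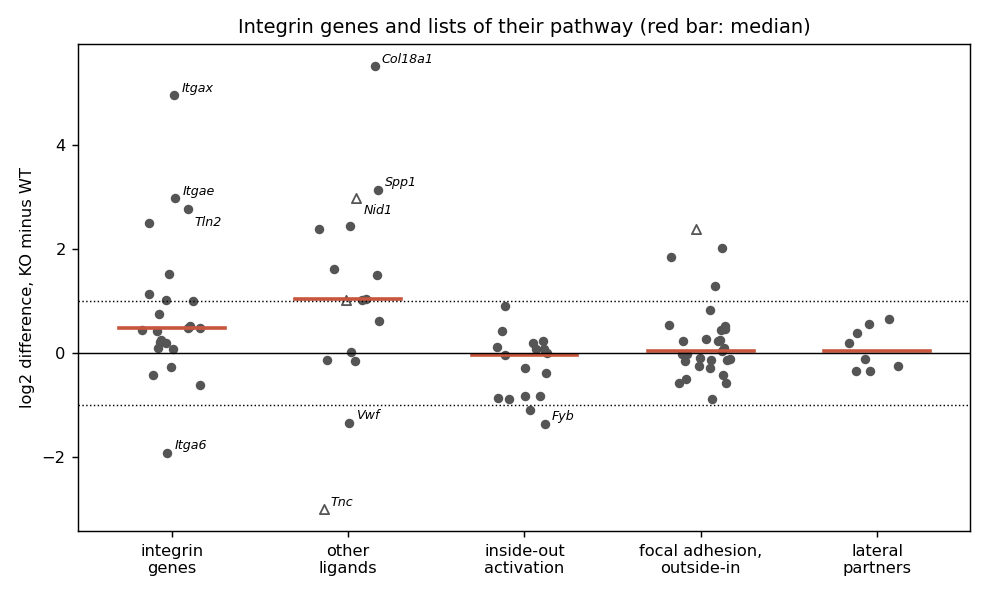
Log2 difference (KO minus WT) of the 23 integrin genes and of 4 lists of pathway genes, 1 symbol per gene, open triangles for bounds, red bars for medians and dotted lines at 2-fold. The ligand list had a median of 1.03, against -0.05 for inside-out activation, 0.03 for focal adhesion genes and 0.03 for lateral partners.

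The genes next to the 8 integrin genes past the limit were read for their own differences. Of 32 neighbouring protein-coding genes with a probe, 2 on either side of each, 2 were at least 2-fold higher in KO, 1 was at least 2-fold lower and 9 were below detection. Of the 23 detected these are 8.70% and 4.35%, near the 10.6% and 5.04% of all genes. Cox6a2 and Pycard, beside Itgax and Itgam, had log2 differences of -0.11 and 0.35. Haspin, a mitotic kinase gene that overlaps Itgae, read 1915 and 1306, with a log2 difference of -0.56. The Itgax and Itgae differences were thus not shared by the genes beside them. Beside Itga3, Samd14 was 2.94-fold higher on dim signals (29.9 and 88.9), and beside Itga9, Eomes, a T-box factor of effector T cells, read 1031 and 452, 2.30-fold lower.

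The size of the differences on dim signals depended on how the background was taken off. The normexp correction also adds an offset of 50 to each signal, which by construction makes differences on dim signals smaller. With the normexp correction, log2 differences were 1.79 for Itgax, 1.41 for Itgae, 1.19 for Itga3, 0.88 for Itgb4, 0.38 for Tln2 and -0.68 for Itga9, and the counts became 4 higher and 3 lower, Itga1 (-1.07) and Itga2b (-1.21) joining Itga6. Over all genes the share of higher ones among those at least 2-fold apart was then 26.3%, against 67.7% without it. That fit included 6 WT spots with a local background over 200. With those backgrounds replaced by the array's median, 6 integrin genes were higher and 1 lower, and the share over all genes was 67.3%. The differences were then 2.78 for Itgax, 2.08 for Itgae, 1.78 for Itga3, 1.22 for Itgb4, 1.35 for Tln2 and 0.27 for Itga9. Itgb5 (1.05 to 1.24) and Itga6 (at most -1.63), both brighter, stayed past the 2-fold limit under all 11 other ways of computing the values, as did Itgax, Itgae and Itga3. Itgb5, Itga6, Itgax and Itgae had 1 probe each, detected on both arrays, so probe choice and detection filters could not change their values. The authors' values and kept flags shifted each of them by the same small amount.

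**Figure D5:**
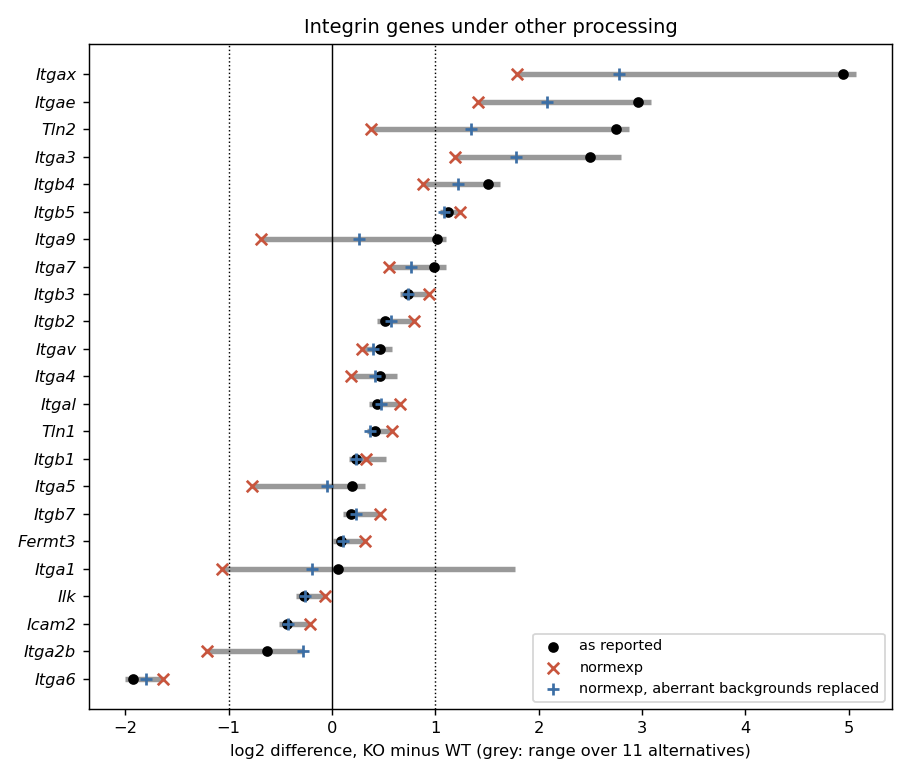
Log2 difference (KO minus WT) of the 23 integrin genes as reported (black), over the range of 11 alternatives (grey), with normexp (red crosses) and normexp after replacing aberrant backgrounds (blue plus signs). The ranges were widest for genes that were dim in WT, such as Itgax (1.79 to 5.07) and Tln2 (0.38 to 2.87).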

How the data were processed

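RNA (500 ng, labelled with Cy3) was measured on 1 Agilent 1-colour mouse array per genotype. Per the file headers, the authors' intensity values came from Agilent's software, version 10.7.3.1 (the submitters' processing notes give 10.7), background-subtracted and without scaling between arrays. The log2 values of the authors' deposited table equalled log2 of that signal minus 9.28 (WT) and 9.27 (KO) within 0.01 for 99.7% of probes (column medians -3.97 and -3.90).

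Spots with outlier flags were left out (115 and 103 of 43379), and no spot was saturated. From each log2 signal that of the 75th percentile was subtracted, and spots of a probe were averaged. Probes were named through RefSeq transcripts of GRCm38.p6: 27035 of 41164 had 1 symbol. A gene took the brightest of its probes that passed Agilent's background test on either array. Where a probe passed on 1 array alone, the difference is a bound against its own dim value or that array's lowest passing level, whichever is higher. All genes of the integrin list were named, and pathway genes at least 2-fold apart, apart from items not reported here. The size rule was 2-fold. Precision is limited by the number of arrays.

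The members and lists were chosen with earlier results of these data known. The 13 alternatives comprised scaling, background (limma 3.58.1, normexp with offset 50; planned on mean spot signals and run on median ones), the authors' values, probe choice, detection filters, kept flags and size rules of 1.5-fold and 4-fold. Replacing backgrounds was an alternative added with the data in view. The procedure was tested on simulated data.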

Additional observations from a re-analysis of the deposited data

How the results depend on the processing

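The counts of integrin genes at least 2-fold higher (7) and lower (1), and of pathway genes (14 and 4), changed by more than 1.5 times under few alternatives. With normexp they were 4 and 3, and 7 and 7, and Itga9 turned to -0.68. With aberrant backgrounds replaced, an alternative chosen after seeing the data, 7 pathway genes were higher. With a size rule of 1.5-fold, 2 integrin genes and 10 pathway genes were lower. With 4-fold, 4 integrin genes were higher and 0 lower, and 7 pathway genes were higher and 1 lower. The causes were not tested, except that the size rules change the counts, and the normexp offset shrinks differences on dim signals, by construction. Not every change with normexp was a shrinkage: Itga2b went from -0.63 to -1.21 and Itga1 from 0.06 to -1.07. The forms of normexp differed only in the replaced backgrounds, and with these replaced Itga2b was -0.28 and Itga1 -0.19. Over all genes 694 were at least 2-fold lower as reported, 1682 with normexp and 369 with backgrounds replaced. The median over integrin genes stayed within 0.38 to 0.58 under the 11 alternatives that give one.

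Of the genes not past the limit, Itga1 turned below 0 with median centring (-0.01), quantile normalization (-0.06) and both forms of normexp, and was past 2-fold upward with the mean over probes (1.13) and with the most different probe (1.78). Itga5 turned below 0 with both forms of normexp (-0.77 and -0.05), and Itga7 was past the limit in 2 of 11. No paired analysis was possible because each genotype has 1 sample, and for the same reason no sample could be left out.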

Other observations

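Among the genes next to Tln2, C2cd4b read 17.7 in WT and 394 in KO, 22.0-fold higher, while C2cd4a, which follows it, read 33.0 and 36.9 (1.11-fold higher). Both were chosen after their values were seen. Markers of mast cells and basophils, which carry beta-1, beta-2 and beta-7 integrins, were higher in KO on signals that were dim in WT. Cpa3, a mast cell protease, read 28.2 and 367 (12.9-fold higher), Mcpt8, a basophil protease, was at least 11.4-fold higher, and Fcer1a, a chain of the IgE receptor, was 2.33-fold higher. Their summed signal over 4 measured markers of 6 was 82.1 in WT and 623 in KO, Gata2 gave a bound under 2-fold, and Ms4a2, another chain of that receptor, was below detection. Of the B cell markers 4 of 5 were measured, with sums of 900 in WT and 1593 in KO, Ms4a1 2.01-fold higher and Pax5 below detection. Of 5 neutrophil markers Mpo alone was measured (43.1 and 31.3). The erythroid gene Hba-a1 read 101 and 280.4, with Alas2 below detection. Of the stromal markers Col1a2 read 142 and 157, and Pdgfra and Dcn were below detection. The part of these cells in the integrin values was not tested.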
